A study of Mus musculus with 22 samples.

Results

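The regions described here are places on the mouse genome where intestinal crypt cells carried 3 parts of 1 Polycomb system together: RING1B, PCGF6 and the histone mark H2AK119ub1. They were chosen by a rule on deposited peak lists: a RING1B peak of the Villin WT sample was a member when it shared at least 1 bp with a PCGF6 peak of the AhCre WT sample and at least 1 bp with an H2AK119ub1 peak of the Villin WT sample. Of 4403 RING1B peaks, 802 (18.2%) met both conditions. Another 1943 peaks (44.1%) overlapped PCGF6 only, 1054 (23.9%) overlapped H2AK119ub1 only, and 604 (13.7%) overlapped neither. The 802 are called triple-overlap peaks below.

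The study used ChIP-seq, which maps where a protein or mark sits by sequencing the DNA it pulls down, in formaldehyde-fixed crypts of the small intestine of C57BL/6 mice, labelled epithelial intestinal cells. The WT and Pcgf6 KO samples came from a Villin and an AhCre line. RING1B and H2AK119ub1 were mapped in WT and Pcgf6 KO of both lines, PCGF6 in WT and KO of AhCre alone, and CTCF and RAD21 in WT and KO of Villin alone. PCGF6 and RING1B were also mapped in WT E14 embryonic stem cells (ESC), an established mouse cell line. Villin promoters drive Cre in intestinal epithelium, and the Ah promoter drives Cre on induction by an aryl hydrocarbon ligand. For RNA crypts of this study the design text gives male mice of 8 to 12 weeks, 7 days after Tamoxifen (Villin) or BNF (AhCre), and the age, sex and time of the ChIP crypts are not given in the sources used here. Nothing states how many animals a sample pools. Each of the 16 lists came from 1 library, so no group had a replicate, no test between conditions was possible, and every interval below is an exact Clopper-Pearson 95% interval that covers counting error over peaks only. Peak lists hold no expression values, so the crypt label was not checked against marker genes. The rule joins 2 lines: the PCGF6 peaks are those of AhCre WT crypts, while the RING1B and H2AK119ub1 peaks are those of Villin WT crypts.

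RING1B is the catalytic E3 ligase of Polycomb repressive complex 1 (PRC1) and places ubiquitin on a lysine near the end of histone H2A, giving the H2AK119ub1 mark. PRC1 comes in several forms that differ in the PCGF protein bound to RING1B. The form with PCGF6, called PRC1.6, also holds the DNA-binding pairs MGA with MAX, which recognise the E-box (MGA also has a T-box domain), and E2F6 with DP1, which recognises E2F sites, and it is best known for silencing germline and meiotic genes in stem cells. Canonical PRC1, with a CBX and a PHC protein, covers developmental transcription factor genes together with PRC2 in many tissues.

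Promoters at the triple-overlap peaks were read for these sites. The peaks named below by rule held 37 promoter windows, of which 8 had a match, and the 6 printed were chosen because they have a match and lie wholly under a PCGF6 peak. The other 29, those of Isl2, Tal1, Mecom and Zcwpw1 among them, had no match, so the printed windows are not typical of the named peaks. Each is the 250 bases before a RefSeq start on build GRCm38.p6, written 5′ to 3′ on the gene's strand, with motif matches in capitals. The searched letters were CACGTG (E-box, the same on both strands), GCGGGAA (E2F, both strands) and AGGTGTGA (T-box, both strands), and no pair of these overlaps in the promoters printed. Igf2bp3 (chr6:49214955-49215204, minus strand) and Cdkn2a (chr4:89294620-89294869, minus strand) lie under peaks that were present in the KO. Parp1 (chr1:180568641-180568890, plus strand), Trim44 (chr2:102400901-102401150, minus strand), Cc2d1a (chr8:84147918-84148167, minus strand) and Duoxa2 (chr2:122298650-122298899, plus strand) lie under peaks that were absent in the KO. All 6 windows lie wholly under both a RING1B and a PCGF6 peak.
Igf2bp3: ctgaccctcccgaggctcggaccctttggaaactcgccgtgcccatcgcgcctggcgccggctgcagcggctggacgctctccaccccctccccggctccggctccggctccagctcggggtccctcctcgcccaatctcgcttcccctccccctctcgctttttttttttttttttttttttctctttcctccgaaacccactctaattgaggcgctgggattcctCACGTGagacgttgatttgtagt
Cdkn2a: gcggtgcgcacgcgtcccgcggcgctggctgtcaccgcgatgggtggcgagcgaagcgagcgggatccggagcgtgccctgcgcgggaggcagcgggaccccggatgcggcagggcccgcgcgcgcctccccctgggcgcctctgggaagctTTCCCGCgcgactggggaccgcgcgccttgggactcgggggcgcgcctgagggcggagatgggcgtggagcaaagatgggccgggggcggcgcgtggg
Parp1: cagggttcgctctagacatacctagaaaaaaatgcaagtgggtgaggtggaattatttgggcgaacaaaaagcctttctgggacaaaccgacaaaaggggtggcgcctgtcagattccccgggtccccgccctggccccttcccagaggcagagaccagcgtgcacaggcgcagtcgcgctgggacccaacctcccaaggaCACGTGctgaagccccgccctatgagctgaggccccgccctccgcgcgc
Trim44: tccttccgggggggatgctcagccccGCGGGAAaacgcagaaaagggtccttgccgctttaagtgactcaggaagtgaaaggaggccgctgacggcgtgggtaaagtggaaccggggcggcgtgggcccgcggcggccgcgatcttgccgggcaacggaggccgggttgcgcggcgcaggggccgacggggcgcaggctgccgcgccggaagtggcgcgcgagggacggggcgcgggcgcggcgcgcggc
Cc2d1a: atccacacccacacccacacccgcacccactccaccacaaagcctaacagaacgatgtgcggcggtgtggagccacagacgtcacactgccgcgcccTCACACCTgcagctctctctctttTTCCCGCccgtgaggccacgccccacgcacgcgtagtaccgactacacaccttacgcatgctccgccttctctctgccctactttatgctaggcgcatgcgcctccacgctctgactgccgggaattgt
Duoxa2: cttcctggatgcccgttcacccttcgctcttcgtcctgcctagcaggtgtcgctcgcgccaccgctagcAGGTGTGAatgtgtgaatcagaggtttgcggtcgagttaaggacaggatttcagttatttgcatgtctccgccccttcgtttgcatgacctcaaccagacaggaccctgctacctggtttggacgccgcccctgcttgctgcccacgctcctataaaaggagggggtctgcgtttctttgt

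A match to an E-box stood in 47 of the 379 promoters at triple-overlap peaks, or 12.4%, against 6.63% of all 21262 protein-coding promoters of the same length and 11.8% of the 1864 at any Villin WT RING1B peak. E2F letters stood in 7.92% of the triple-overlap promoters (interval 5.4 to 11.1%), 4.96% of all and 9.12% of those at any Villin WT RING1B peak. The E2F share was 10.5% at RING1B peaks with PCGF6 only and 8.36% at those with H2AK119ub1 only. T-box letters stood in 1.32% of the triple-overlap promoters (interval 0.43 to 3.05%), 0.997% of all and 0.805% of those at any RING1B peak. Where the promoter window itself overlapped a PCGF6 peak, 45 of 281 windows (16.0%, interval 11.9 to 20.8%) held the E-box, and 2 of the 98 other windows did (2.04%, interval 0.248 to 7.18%). These 379 windows belong to 335 genes, so some share a gene. Among windows at PCGF6, the share was 13.4% (27 of 201; interval 9.04 to 18.9%) at peaks present in the Villin KO and 22.5% (18 of 80; interval 13.9 to 33.2%) at peaks absent there, and these intervals overlap. Over all windows, under a PCGF6 peak or not, the E-box share was 12.4% (9.26 to 16.1%) at triple-overlap peaks. It was 14.1% (12.0 to 16.4%) at RING1B peaks with PCGF6 only and 4.64% (2.62 to 7.54%) at those with H2AK119ub1 only. The median GC content was 64.8% at triple-overlap promoters, 64.0% in both of those classes and 55.6% over all promoters. These letters are a description of the windows and show no binding.

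At 751 of the 802 peaks chosen by the rule, the RING1B, PCGF6 and H2AK119ub1 peaks shared at least 1 common base. This describes the lists that the rule used, and the PCGF6 list is of the other line. The middle peak had 73.5% of its length under H2AK119ub1 (quartiles 47.1 and 96.1%) and 83.3% under PCGF6 (quartiles 50.5 and 100%). The centre of the nearest overlapping PCGF6 peak lay a median 254 bp from the RING1B centre. The 802 peaks met 817 different PCGF6 peaks and 928 different H2AK119ub1 peaks, and 20 of them shared a PCGF6 peak with another triple-overlap peak. At the edge of the rule, the peaks with the least overlap were those at Tmem229a, Slc2a8, a sugar transporter, and Stat5a, a cytokine-activated transcription factor, which shared 1, 3 and 6 bp with H2AK119ub1. Just outside it, the PCGF6-bound peaks at Bok, Pim3 and Tmem44 lay 10, 33 and 52 bp from an H2AK119ub1 peak. Few peaks sat this close: 23 members shared under 100 bp with a partner, and 53 of the 1943 PCGF6-only peaks lay within 500 bp of the mark. Membership was sensitive to the cut: 423 peaks remained when each partner had to cover at least 50% of the RING1B peak, and 94 when every score had to be 20 or more.

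The deposited score of a peak is a −log10 p value from the peak caller (p or q is not stated), with a lowest value of 10 in every list, and it was used only to rank peaks within a list. The median RING1B score was 19.5 at triple-overlap peaks, 13.4 at PCGF6-only peaks, 18.2 at H2AK119ub1-only peaks and 14.7 over all 4403. The PCGF6 peaks there were the lower ones: their median score was 23.8, against 35.8 at PCGF6-only peaks. The H2AK119ub1 score was 15.7, against 17.7 at H2AK119ub1-only peaks. These values belong to the 3 lists that the rule used and are given as a description.

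The knockout of Pcgf6 was read first in its own lists, which exist for AhCre. The PCGF6 list held 17163 peaks in WT and 4779 in KO. Of the 802 triple-overlap peaks, 594 overlapped no PCGF6 peak of the KO list, a loss of 74.1% (70.9 to 77.1%). Here and below every loss is read over the interval of the Villin WT RING1B peak. A protein or mark counts as lost when that interval overlaps its WT list and shares no base with the matching KO list. A KO peak just outside the interval therefore does not count as kept. Over all RING1B peaks with PCGF6 the share lost was 54.6%, and at PCGF6-only peaks it was 46.5% (44.3 to 48.8%). By PCGF6 score from the lowest to the highest quintile, triple-overlap peaks lost 98.2, 95.8, 81.2, 47.8 and 4.85%, and PCGF6-only peaks 94.1, 82.4, 52.0, 20.2 and 2.69%. The intervals overlapped in the lowest quintile (95.5 to 99.5 and 91 to 96.4%) and the highest (1.59 to 11 and 1.4 to 4.65%), and not in the 3 between, as in the third (74.0 to 87.1 and 47.0 to 57.0%). A PCGF6 peak thus stayed at 208 triple-overlap peaks in the KO list, among them Isl2 (score 188 in WT and 27.1 in KO) and Stag3 (683 and 165). With both lists shortened to 4779 peaks, 44.4% of the triple-overlap peaks with a PCGF6 peak were lost and 27.1% of all such RING1B peaks. Scores and list lengths depend on depth, which peak lists do not give.

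RING1B was absent from 251 of the 802 triple-overlap peaks in the Villin Pcgf6 KO, or 31.3% (28.1 to 34.6%), and present at 551. Over all 4403 RING1B peaks 55.1% were lost. PCGF6-only peaks lost 76.1% (74.2 to 78.0%) and H2AK119ub1-only peaks 31.7% (28.9 to 34.6%). The intervals of the triple-overlap and H2AK119ub1-only shares overlap, and both lie below that of PCGF6-only peaks. A WT list of the other line gave similar shares. The Villin KO list held a peak at 68.7% of triple-overlap, 23.9% of PCGF6-only, 68.3% of H2AK119ub1-only and 44.9% of all peaks. The AhCre WT RING1B list held one at 69.3, 26.0, 68.6 and 46.6% in the same order. Whether the loss in KO exceeds the difference between WT lists was not tested, here or in the quintiles below. Because membership needed a WT peak, these counts can show loss and not gain. In bulk crypts, fewer cells with RING1B at a site and less RING1B per cell cannot be told apart.

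**Figure D1:**
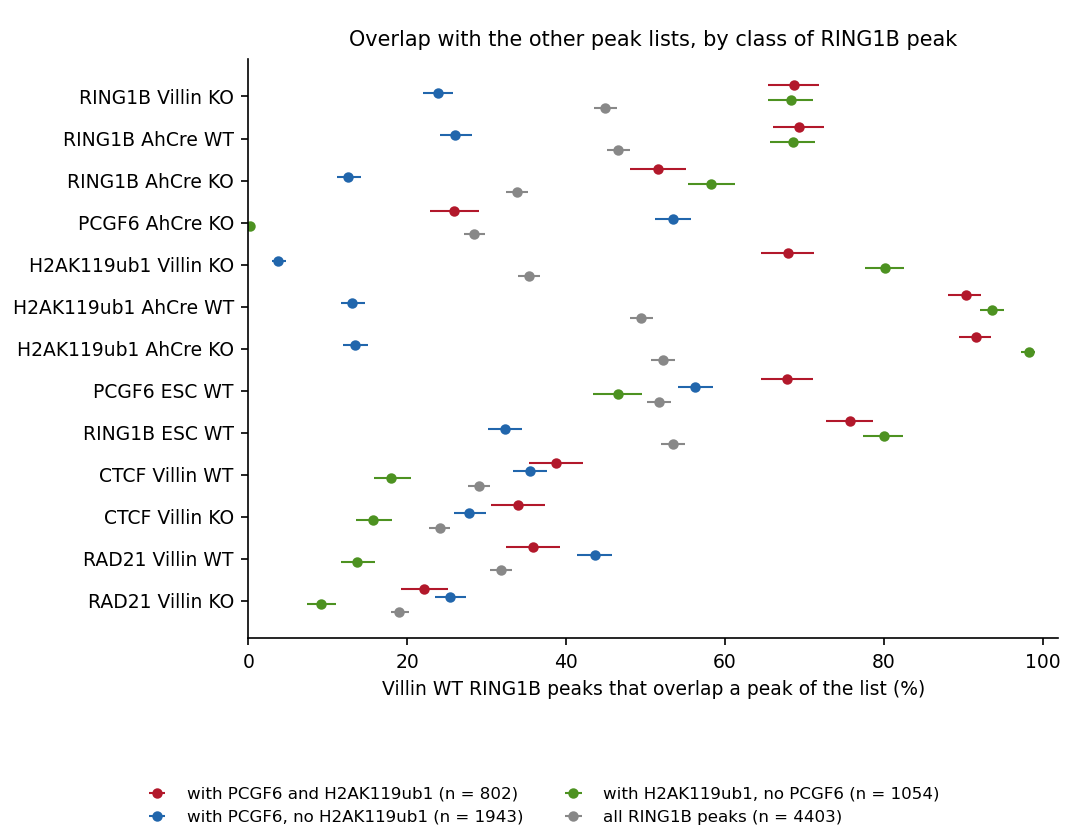
Share of Villin WT RING1B peaks (x axis, %) that overlap a peak of each other list (y axis), for 802 triple-overlap peaks (red), 1943 PCGF6-only peaks (blue), 1054 H2AK119ub1-only peaks (green) and all 4403 (grey). Points are shares and bars exact 95% intervals of counting error; each list is 1 library, and in the Villin KO RING1B list red stands at 68.7%, green at 68.3% and blue at 23.9%.

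The loss followed how strong and how wide the RING1B peak was. When all 4403 peaks were cut into quintiles by RING1B score, the triple-overlap peaks lost 67.4, 66.7, 49.3, 20.9 and 5.24% from the lowest to the highest quintile. Peaks of equal score stayed together, so these quintiles were unequal, with 1111, 820, 821, 824 and 827 peaks. H2AK119ub1-only peaks lost 73.3, 60.4, 44.8, 18.8 and 0.852% in the same quintiles. Their interval in the highest quintile, 0.176 to 2.47%, lay below the triple-overlap interval, and in the other quintiles the intervals overlapped. PCGF6-only peaks lost more in every quintile, from 90.3% in the lowest to 43.4% (35.6 to 51.5%) in the highest, where the triple-overlap interval was 2.82 to 8.8%. The intervals of triple-overlap and PCGF6-only peaks met in none of the 5 quintiles. By width the triple-overlap peaks lost 73.7% among the narrowest quintile (up to 511 bp) and 8.46% among the widest (1642 bp and over). By PCGF6 score the triple-overlap shares were 29.8, 31.4, 24.8, 38.1 and 35.0%, with intervals that overlap across all quintiles, while PCGF6-only peaks went from 70.1 to 85.4%. By H2AK119ub1 score the triple-overlap peaks went from 47.5% in the lowest quintile to 11.5% in the highest.

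**Figure D2:**
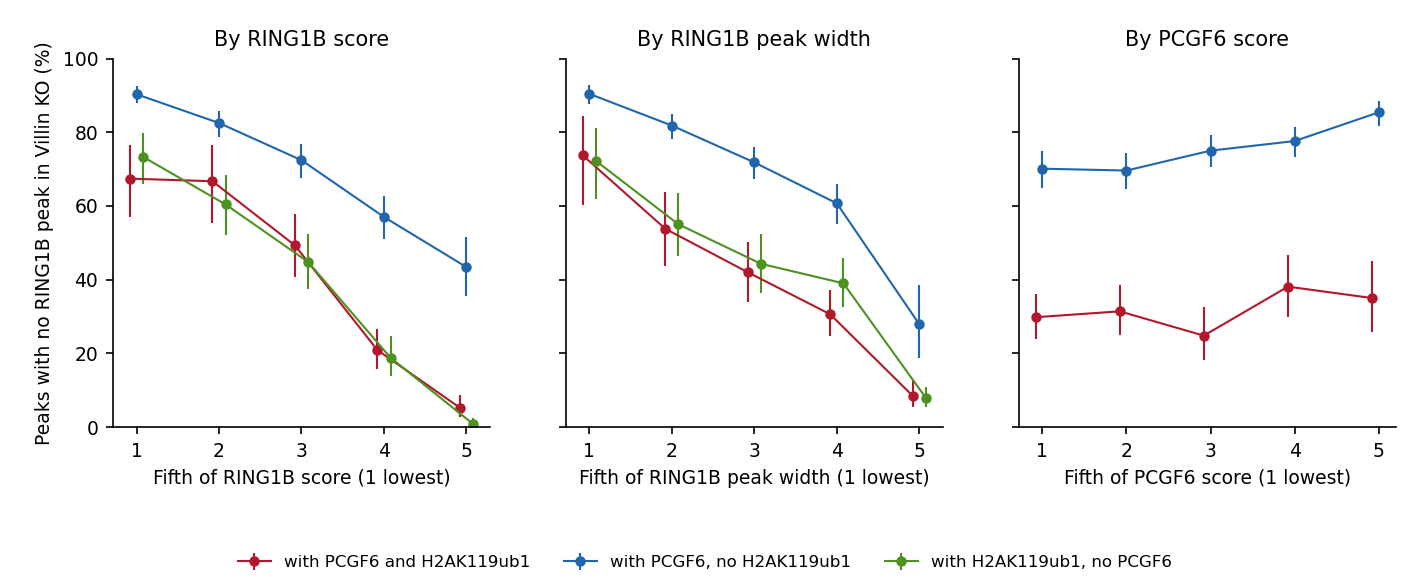
Share of RING1B peaks with no RING1B peak in the Villin KO list (y axis, %) by quintile of RING1B score, RING1B peak width or PCGF6 score (x axes, 1 is the lowest quintile), for triple-overlap (red), PCGF6-only (blue) and H2AK119ub1-only peaks (green, absent from the right panel). Bars are exact 95% intervals of counting error. In the left panel red and green fall from about the same start to 5.24 and 0.852%, where their intervals do not overlap. Red stays below blue in all panels.

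The Villin KO RING1B list is shorter than the WT list, with 2464 peaks. With both lists shortened to that length by score, 131 of 622 triple-overlap peaks (21.1%) and 34.9% of all peaks were lost. Among the 556 triple-overlap peaks that also had an AhCre WT RING1B peak, 17.4% were lost in the Villin KO. At the peaks still present, the KO peak covered a median 82.9% of the WT peak's length, and at 484 of 551 it covered at least 50% of it.

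The strongest peaks that stayed were mostly long, and several lay at developmental transcription factor genes. Isl2, a LIM homeobox gene of motor neurons, had a peak of 10382 bp with scores of 766 in Villin WT, 588 in Villin KO, 1437 in AhCre WT and 1213 in AhCre KO. Scores of different lists are not on 1 scale, so these values show only that the peak ranked high in all 4. Its H2AK119ub1 peak scored 43.0 and 26.2 in Villin WT and KO and was present in both AhCre lists. Igf2bp3, an RNA-binding protein of fetal tissues, had a peak of 16304 bp with scores of 941, 731, 1428 and 1029 in the same order. Tal1, a blood-lineage bHLH factor, followed with 560, 470, 881 and 677, and Otx1, a homeobox gene of the forebrain, with 454.5, 314, 825 and 703. Mecom, a zinc finger factor, had 426 and 291 in Villin WT and KO. The 2599 bp peak at Pfdn4, a prefoldin subunit, and Cyp24a1, the enzyme that breaks down active vitamin D, had 664 and 500. Slc30a3, a zinc transporter, had 392 and 218. At 6 of these 7 loci, Isl2 being the exception, the AhCre KO list held no PCGF6 peak while RING1B stayed in both lines. Their AhCre WT PCGF6 scores were low, from 13.5 at Mecom to 22.4 at Igf2bp3. In the lowest and second PCGF6 score quintiles, which hold these scores, 98.2 and 95.8% of triple-overlap peaks lost PCGF6. Over all 551 peaks that stayed in Villin KO, 419 (76.0%) had no PCGF6 peak in AhCre KO.

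Among the 10 highest that stayed, 3 lay outside the 1 kb windows of all protein-coding genes. The peak at chr4:117490710-117499201 lies inside Rnf220, a ubiquitin ligase gene, and that at chr6:51167810-51186731 lies in no listed gene. The highest of all, chr17:39843014-39848813 with a score of 960, covers Rn18s-rs5, a pseudogene of the 18S ribosomal RNA, and AY036118. It had a peak in all 16 lists, CTCF and the KO PCGF6 list included, and its scores in KO were 1282 for Villin RING1B and 45.4 for PCGF6. A ribosomal repeat copy can collect reads of many genomic copies; whether it did so here was not tested, and it is 1 of 802 peaks.

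The 10 highest peaks that were lost measured 771 to 2365 bp and had PCGF6 scores from 63.8 to 1030. Over all lost peaks the median PCGF6 score was 24.8, close to the 23.8 of all that stayed. At Zcwpw1, a histone reader of meiotic recombination sites, next to Mepce, a 7SK RNA capping enzyme, an 885 bp RING1B peak scored 94.99 in Villin WT and was absent in Villin KO, while its PCGF6 peak scored 902 in WT and 112 in KO. That peak was kept in AhCre, with scores of 11.4 in WT and 11.0 in KO, and its H2AK119ub1 peak (12.9) was lost in Villin. At Cc2d1a, with 4930432K21Rik beside it, the RING1B score was 94.8, the PCGF6 scores were 1030 in WT and 138 in KO, and RING1B stayed in AhCre (28.3 and 10.4). Inside Kiss1r, the kisspeptin receptor gene, the peak chr10:79920446-79922190 scored 62.3 for RING1B and 383 for PCGF6, and lost RING1B in both lines with H2AK119ub1 kept in both (20.4 and 24.4 in Villin, 51.0 and 51.9 in AhCre). Pqlc3 and Trim44 followed with a RING1B score of 46.75 each and PCGF6 scores of 437 and 540.

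The other 5 had RING1B scores from 28.4 to 32.7. Among them were peaks inside Tiam1, a Rac activator, at 4931428F04Rik and Exoc3l, at Errfi1, a feedback inhibitor of EGF receptor signalling, and at Arhgap35, a GTPase-activating protein.

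**Figure D3:**
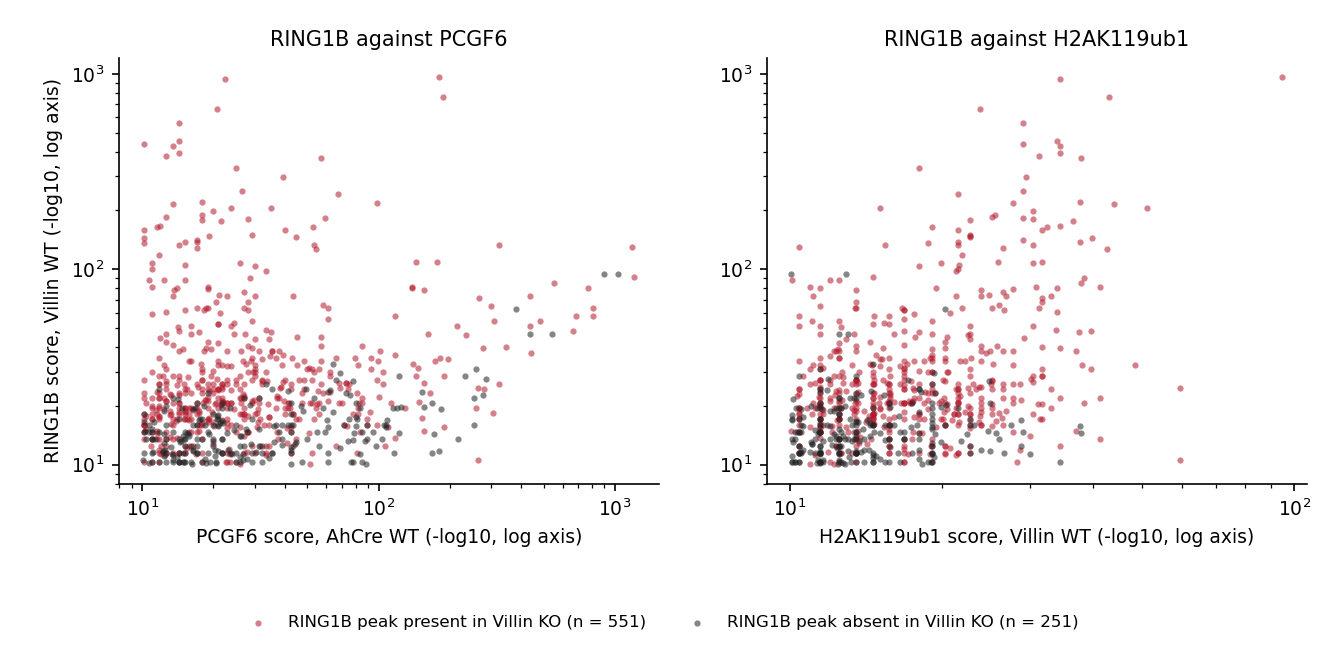
RING1B score in Villin WT (y axis, −log10 on a log axis) against the PCGF6 score in AhCre WT (left x axis) and the H2AK119ub1 score in Villin WT (right x axis) for the 802 triple-overlap peaks, in red where the Villin KO list holds a RING1B peak (551) and black where it does not (251). Most black points lie low on the y axis at every PCGF6 score, and the highest, at 94.99, has a PCGF6 score of 902.

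The AhCre line gave a second view. Its WT RING1B list held 2368 peaks and covered 556 of the 802 triple-overlap peaks, 69.3% (66.0 to 72.5%), against 46.6% of all Villin WT RING1B peaks, 26.0% of PCGF6-only and 68.6% of H2AK119ub1-only peaks. Of the 556, 172 were lost in AhCre KO, 30.9% (27.1 to 35.0%), where all RING1B peaks lost 36.1%, PCGF6-only peaks 63.2% and H2AK119ub1-only peaks 21.3% (18.4 to 24.5%). By AhCre WT score the triple-overlap peaks lost 63.7% in the lowest quintile and 1.80% in the highest. Both lines lost RING1B at 57 of the 556, 10.3% (7.86 to 13.1%), against 18.2% over all RING1B peaks and 39.3% at PCGF6-only peaks. With 50% coverage required this share was 16.4%, and with lists of equal length 6.49%. Another 344 peaks were kept in both lines, 115 were lost in AhCre only and 40 in Villin only. The 344 had a median width of 2151 bp and a median PCGF6 score of 24.7, and the 57 had 1010 bp and 46.8. Of the 246 peaks with no AhCre WT peak, 154 were lost in Villin.

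Among the 57, those with the highest mean rank of WT score were headed by Trim44, a TRIM family gene, with RING1B scores of 46.75 in Villin WT and 26.1 in AhCre WT, none in either KO, and H2AK119ub1 kept in both lines (12.5 and 10.3 in Villin, 13.2 and 21.5 in AhCre). Its PCGF6 peak scored 540 in WT and 95.1 in KO. Parp1, the poly(ADP-ribose) polymerase of DNA repair, had 17.5 and 18.1, no ESC peak of either protein and no H2AK119ub1 peak in AhCre WT or KO, and its Villin WT peak shared 65 bp with the mark. At Duox2 and Duoxa2, the dual oxidase of gut epithelium and its maturation factor, the scores were 23.5 and 14.3. Others were the peak inside Macrod1 and Flrt1, Kiss1r, Ptprs, a receptor phosphatase, and Vash2.

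The H2AK119ub1 mark was lost in Villin KO at 257 of the 802 peaks, 32.0% (28.8 to 35.4%), against 25.1% over all RING1B peaks with the mark and 19.8% (17.5 to 22.4%) at H2AK119ub1-only peaks. By H2AK119ub1 score the share went from 62.1% in the lowest quintile to 2.17% in the highest. At 122 peaks RING1B and the mark were both lost in Villin, at 129 RING1B was lost and the mark kept, at 135 the mark was lost and RING1B kept, and at 416 both were kept. The share that lost the mark was 48.6% (42.3 to 55%) where RING1B was lost and 24.5% (21.0 to 28.3%) where it was kept. These groups also differed in the WT mark: its median score was 13.4 where RING1B was lost and 16.9 where it was kept. Its median width was 1221 and 1821 bp in the same order. Whether the losses go together at equal score and width was not tested. The commonest single fate was RING1B and the mark kept in Villin with PCGF6 lost in AhCre, at 334 peaks (41.6%), and all 3 were lost at 79 (9.85%), which had a median width of 678 bp.

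In AhCre, whose H2AK119ub1 lists are longer (13175 peaks in WT and 16039 in KO, against 6219 and 5492 in Villin), the mark stood at 725 of the 802 peaks, 90.4% (88.1 to 92.3%), against 49.5% of all RING1B peaks. It was lost in AhCre KO at 32 of the 725, 4.41% (3.04 to 6.17%), with 7.52% over all RING1B peaks and 1.11% at H2AK119ub1-only peaks. This share was 8.09% with 50% coverage, 2.96% with a gap of 500 bp allowed, and 0 of 90 with scores of 20 or more, which allows up to 3.33%. Of the 77 without the mark in AhCre WT, 42 had it in KO (54.5%), where the share over all RING1B peaks was 12.6% and at H2AK119ub1-only peaks 89.4% (59 of 66). The triple-overlap peaks had been chosen for the mark in Villin WT, which all RING1B peaks had not. Of the 257 peaks that lost the mark in Villin KO, 195 had it in AhCre KO. Both lines lost it at 28 of 725, 3.86% (2.58 to 5.53%), and at 2.1% of all RING1B peaks with the mark in both WT lists. These 28 included Tert, the telomerase catalytic subunit, Mnx1, a homeobox gene, and Socs1, a cytokine signalling inhibitor, genes picked from the 28 after their values were seen. At Tert the mark scored 11.2 in Villin WT and 15.3 in AhCre WT, and RING1B scored 15.1 and 10.2, with no peak in either KO for any of these.

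In WT ESC, PCGF6 peaks overlapped 544 of the 802 triple-overlap peaks, 67.8% (64.5 to 71.1%), against 51.7% of all RING1B peaks, 56.3% of PCGF6-only and 46.5% of H2AK119ub1-only peaks. ESC RING1B peaks overlapped 608, 75.8% (72.7 to 78.7%), against 53.5% of all, 32.3% of PCGF6-only and 80.0% of H2AK119ub1-only peaks. Both ESC proteins stood at 469 (58.5%), RING1B alone at 139, PCGF6 alone at 75 and neither at 14.8%. Peaks that stayed in the Villin KO had both ESC proteins in 65.9% (61.8 to 69.8%) of cases, and lost peaks in 42.2% (36.0 to 48.6%). ESC occupancy grew with RING1B strength in crypts: ESC RING1B stood at 63.9% of triple-overlap peaks in the lowest quintile of crypt score and at 89.0% in the highest. ESC PCGF6 stood at 51.4, 59.3, 61.2, 64.3 and 81.8% of triple-overlap peaks from the lowest to the highest quintile. At PCGF6-only peaks the shares were 41.9, 51.6, 57.0, 74.5 and 77.3%. The intervals of these 2 classes overlapped in each quintile, and the PCGF6-only share was the higher in the fourth. These quintiles split peaks of equal score and held 881 or 880 RING1B peaks each, unlike those used for RING1B loss in Villin KO.

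The highest triple-overlap peaks with no ESC peak were at Cnpy1 (crypt RING1B score 243), at Camsap2, a microtubule minus-end protein (65.6), inside Vti1a, a SNARE gene (63.6), inside Rnf220 (52.8) and at Pqlc3 (46.75). The first 4 kept RING1B in Villin KO, with scores of 159, 34.1, 14.8 and 62.5, and Pqlc3 lost it. The Vti1a peak had a PCGF6 score of 810 in crypts and none in ESC. Both ESC peaks together with RING1B and PCGF6 kept in the crypt KOs were found at 91 peaks. Among the highest were Isl2 (ESC scores 118 for PCGF6 and 621 for RING1B), Spag6, a sperm flagellum gene (84.3 and 410), and Shox2, a limb and heart homeobox gene (17.4 and 265). A peak in all 13 lists that the rule did not use stood at 14 of the 802.

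CTCF, the insulator protein, and RAD21, a cohesin subunit, anchor chromatin loops. CTCF peaks of Villin WT overlapped 310 of the 802 triple-overlap peaks, 38.7% (35.3 to 42.1%), against 29.1% of all RING1B peaks, 35.4% of PCGF6-only and 18.0% of H2AK119ub1-only peaks. RAD21 overlapped 287, 35.8% (32.5 to 39.2%), against 31.8%, 43.6% and 13.7% in the same order. With each partner required to cover 50% of the RING1B peak the shares were 23.2% for CTCF and 20.6% for RAD21. Of the 287 with RAD21, 228 also had CTCF and 59 did not. In Villin KO, CTCF was lost at 46 of the 310, 14.8% (11.1 to 19.3%), against 20.1% at all RING1B peaks with CTCF. RAD21 was lost at 117 of the 287, 40.8% (35.0 to 46.7%), against 44.5% at all RING1B peaks with RAD21. New CTCF peaks stood at 8 of 492 (1.63%, against 1.18% of all) and new RAD21 peaks at 7 of 515 (1.36%, against 2.06%). At the Hoxa domain CTCF scored 375 in WT and 356 in KO and RAD21 197 and 140.

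The triple-overlap peaks were wide. Their median width was 1236 bp (quartiles 783 and 2112), against 842 bp for all RING1B peaks, 667 bp for PCGF6-only and 1359 bp for H2AK119ub1-only peaks. Peaks that stayed in Villin KO had a median of 1530 bp and lost ones 835 bp, and the widest lost peak measured 2819 bp. All 71 peaks of 5 kb or more stayed. With every score at 20 or more the median width of the 94 peaks was 2448 bp. A wider peak has more bases that can meet a peak of another list, and its part in these shares was not tested. The widest covered 45498 bp of the Hoxa cluster (chr6:52196539-52242036), from Hoxa3 to Hoxa10, with RING1B scores of 206 in Villin WT, 170 in Villin KO, 268 in AhCre WT and 250 in AhCre KO. Of its length, 98.3% lay under H2AK119ub1 and 5.56% under PCGF6, so PCGF6 marked a small stretch of a large domain. The same held at Pax6, the eye, brain and endocrine homeobox gene (24984 bp; 94.2 and 4.11%). The 25735 bp peak at Cdkn2a and Cdkn2b, the cell cycle inhibitors that Polycomb is known to silence, had 39.1% under the mark and 8.04% under PCGF6, with RING1B scores of 104, 62.5, 129 and 110. The lost peaks lay mostly inside the PCGF6 peak: their median share under PCGF6 was 98.4%, against 71.9% for peaks that stayed. This share is taken over the RING1B width, which was smaller at lost peaks. The PCGF6 peaks themselves had similar median widths, 1277 bp at lost peaks and 1260 bp at those that stayed.

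**Figure D4:**
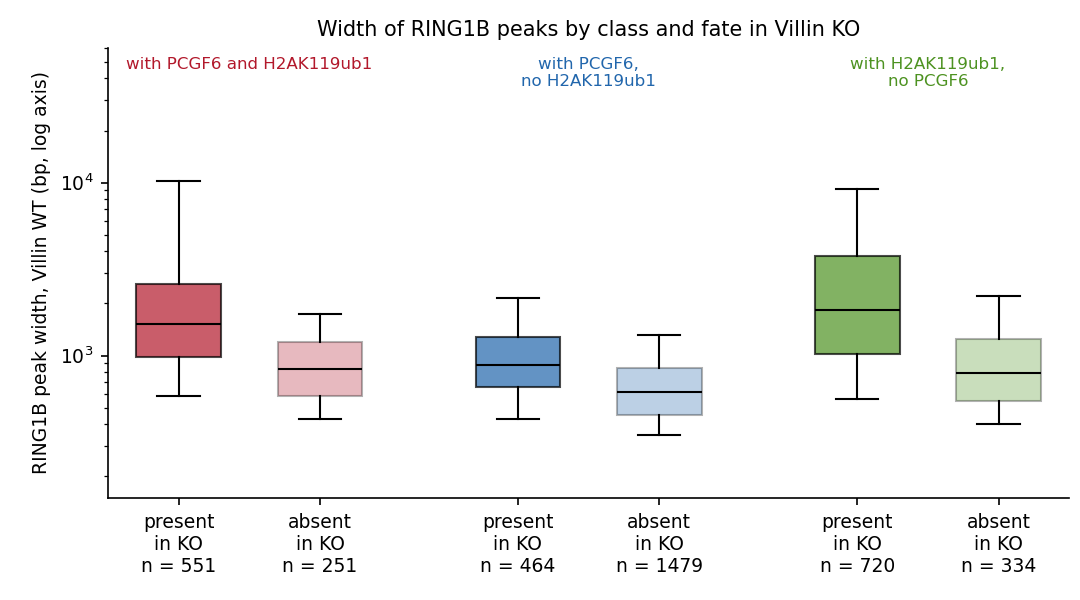
Width of Villin WT RING1B peaks (y axis, bp on a log axis) by class and by presence of a RING1B peak in the Villin KO list. Boxes give the median and quartiles and whiskers the 5th and 95th percentiles over peaks; among triple-overlap peaks (red) the median is 1530 bp where RING1B was present and 835 bp where it was absent.

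Of the 802 peaks, 590 (73.6%) lay within 1 kb of a protein-coding gene start, or of either end for genes without a listed start, against 69.7% of all RING1B peaks, and 301 covered a start. They named 621 genes, 2.84% of 21883, with 303 where partners had to cover 50% and 87 at scores of 20 or more. RING1B stayed at a triple-overlap peak of 456 genes and was lost at every such peak of 165. Neither Pcgf6 nor Rnf2, the gene of RING1B, had a Villin WT RING1B peak in its window.

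Polycomb genes themselves were among them; each list below reads against the 2.84% of all genes, and each count that stayed against the 68.7% of all triple-overlap peaks, or 456 of 621 genes, at which RING1B stayed in Villin KO. Counts at PCGF6-only and H2AK119ub1-only peaks read against 7.47 and 2.88% of all genes. With list counts this small, nothing particular to a list is read from them. Of 22 genes of canonical and other variant PRC1, 5 had a triple-overlap peak. Cbx2 and Cbx8, chromodomain subunits, had RING1B scores of 179 and 109 in Villin WT and 154 and 77.3 in KO. Bmi1, another PCGF protein of PRC1, had 100.15 and 65.9. Bcor, a subunit of the PCGF1 complex, had 11.4 and lost its peak. Of the 15 PRC1.6 genes 1 had such a peak, Rybp, a RING1B-binding subunit, which lost RING1B (14.7 in WT) and the mark (10.3) in Villin KO and kept PCGF6 in AhCre KO (37.8 and 11.1); 5 genes of the list had a PCGF6-only peak. None of the 13 PRC2 genes had a triple-overlap peak.

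Developmental transcription factors, the largest list, gave the most genes by count, while stem cell markers (25%), Hox genes (23.1%) and PRC1 genes (22.7%) had higher shares. Among 146 such genes outside the Hox clusters, 31 (21.2%) had a triple-overlap peak (30 peaks in all), 82 an H2AK119ub1-only peak and 1 a PCGF6-only peak. RING1B stayed at 29 of the 31 in Villin KO, where it stayed at 456 of 621 genes in all. After Isl2, Tal1 and Otx1 came Lhx2, a forebrain and hair follicle regulator (296 in WT, 141 in KO), Sim2 (215 and 129), Gata3, a T cell and skin factor (184 and 88.3), and Tfap2a, a neural crest factor (183 and 218). The 2 that lost it were Tbx3 (19.45), a T-box repressor, and Mnx1 (12.5). Foxa2, the endoderm pioneer factor, stayed in Villin (12.5 and 11.4) and was lost in AhCre (12.8 in WT). Of 39 Hox genes, 9 had a triple-overlap peak and 27 an H2AK119ub1-only peak; 6 of the 9 shared the Hoxa domain, Hoxa13 (177 and 159) and Hoxa4 (42.15 and 18.1) also stayed, and Hoxd4 (10.6) was lost.

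Signalling genes of the crypt niche followed. Of 60 Wnt pathway genes 10 had a triple-overlap peak, and 8 stayed, near the share over all such genes. Lef1, a nuclear effector of Wnt signals, scored 90.8 in WT and 54.5 in KO, the receptor gene Fzd7 34.6 and 10.2, and Notum, a secreted Wnt deacylase, 25.8 and 12.5. Fzd3 (14.7) and Fzd1 (13.6) were lost. Of 50 BMP and TGF-beta genes 6 had one, with Tgfbr1, a receptor (27.1 and 18.5), Tgfb1, a ligand (26.8 and 19.7), and Bmp7 (20.7 and 14.8) kept and Bmp8b (26.9) lost in Villin and kept in AhCre (13.9 and 11.8).

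Of 20 intestinal stem cell marker genes 5 had a triple-overlap peak, 5 a PCGF6-only peak and none an H2AK119ub1-only peak. Bmi1 and Ascl2, the bHLH factor of crypt base stem cells (26.2 and 19.4), which the imprinted and tuft lists hold too, stayed in Villin KO. Tert (15.1), Smoc2 (11.1) and Tnfrsf19 (10.4) were lost, with WT scores under the triple-overlap median of 19.5. Of 24 goblet and secretory regulators 4 had one, and these stayed, as 68.7% of all triple-overlap peaks did: Atoh1, the master factor of secretory cells (129 and 84.8), Hey2 (46.7 and 18.9), Hey1 (40.6 and 45.1) and the receptor Notch1 (22.7 and 12.1). Of 24 enteroendocrine genes 3 had one and stayed, among them Pax6 and Insm1 (108 and 44.2). Of 29 tuft cell genes 2 had one, Ascl2 and Pou2f3, the tuft lineage factor, which lost its peak (17.1). Gata4 (88.2 and 65.8) was the only 1 of 23 enterocyte genes.

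Markers of cells that are not epithelial were read in the same way. Of 18 mesenchymal and endothelial genes 2 (11.1%) had a triple-overlap peak, Pdgfra (76.5 and 43.6) and Vim (18.4 and 12.2), and of 19 immune genes none.

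Germline and meiotic genes, known targets of PRC1.6 in stem cells, gave 5 of 62. In all 8 had a RING1B peak, with 4 at a PCGF6-only peak and none at an H2AK119ub1-only peak, and a gene with several peaks can count in more than 1 class. Stag3, a meiotic cohesin subunit, scored 57.4 in Villin WT and 14.8 in KO, with PCGF6 at 683 and ESC PCGF6 at 405. Syce2, of the synaptonemal complex, scored 28.4 and 14.8, with PCGF6 at 189, and Hspa2, a spermatocyte chaperone, 62.1 and 37.0, with PCGF6 at 18.2. Zcwpw1, above, and Meiob (13.6), a meiotic DNA-binding protein, were lost. Of 50 replication and cell cycle genes 1 had a triple-overlap peak, Mybl2 (10.4, lost), and of 74 ribosomal protein genes none, against 5 and 9 at PCGF6-only peaks. Of 45 matched imprinted genes 4 had one and stayed, Phlda2 (31.1 and 17.2), Ascl2, Cd81 (17.1 and 16.0) and Cdkn1c (17.1 and 12.5). Of 11 Paneth cell genes none had one.

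**Figure D5:**
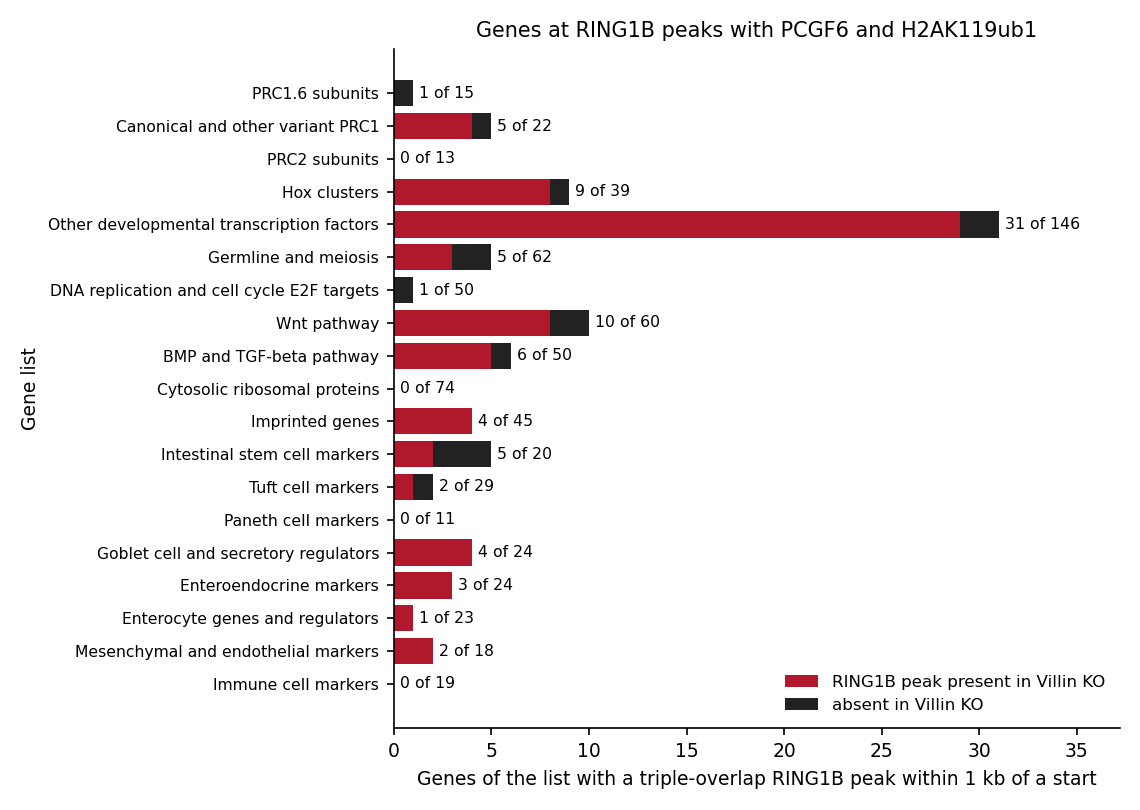
Number of genes of each list (y axis) with a triple-overlap RING1B peak within 1 kb of a start, or of an end where no start is listed (x axis), split by whether a RING1B peak stayed in the Villin KO list (red) or not (black); the text gives the count and the matched list size. Developmental transcription factors reach 31 of 146 with 29 in red, and stem cell markers 5 of 20 with 2 in red.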

How the data were processed

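ChIP-seq peak lists of 16 samples were analysed, and the 6 inputs, which come with no list, were not used here. Each list gives chromosome, start, end and a score, read as a −log10 p value that the authors' caller made and deposited, at 10 or more in every list (p or q not stated). The authors deposited peaks called per sample against the WT crypt input, per the labels. Reads were handled with MACS2 2.1.1 and with Bowtie in versions 1.1.2 and 1.2.2, and the builds listed are hg38, dm6 and mm10, per the submitters' processing notes, which give no roles. H2AK119ub1 samples carried Drosophila chromatin, per the labels' protocols, and how it entered the calls is not given in the sources used here.

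Starts were converted to 1-based positions. Overlap meant 1 bp or more. Shares carry exact Clopper-Pearson intervals (scipy 1.17.1) for counting error; peaks are not replicates. The overlap code was checked against bedtools 2.31.1 and on simulated removals. Genes came from RefSeq tables of GRCm38.p6: a peak named a protein-coding gene within 1 kb of a start, or of either end for 4392 genes without one. Of 732 genes in 19 lists, 727 matched. Peaks were named by rule: the 10 highest scores kept and lost in Villin KO, the 10 highest lost in both lines, the 5 highest without an ESC peak, the 5 highest with both ESC peaks and RING1B and PCGF6 kept, the 3 widest, the rule's edges, and list genes by score. Socs1 falls outside these rules and was picked after its values were seen. The members and lists were chosen with earlier results of these data known. Labels of the ESC samples disagree in 1 description line; titles and antibody fields were used. A few named items are not reported here.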

Additional observations from a re-analysis of the deposited data

How the results depend on the processing

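Of 52 alternative values, 15 stayed within the main value's counting interval (or, for counts, within 1.5 times) and 37 moved; why was not tested, beyond what each setting removes by construction. Where each partner and each other list had to cover 50% of the RING1B peak, 423 peaks qualified, with a median width of 982 bp and 303 genes; RING1B was lost at 41.8% in Villin KO, 44.5% in AhCre KO and 16.4% in both, PCGF6 at 80.6%, and H2AK119ub1 at 44.4% in Villin and 8.09% in AhCre, while AhCre WT RING1B and H2AK119ub1 stood at 60.5 and 81.8%, ESC PCGF6 at 61.2%, CTCF at 23.2% and RAD21 at 20.6%. With scores of 20 or more, 94 peaks qualified (2448 bp, 87 genes); RING1B was lost at 39.4% in Villin and 21.0% in AhCre, PCGF6 at 86.2% and AhCre H2AK119ub1 at 0%, while AhCre WT RING1B and H2AK119ub1 stood at 66.0 and 95.7%, ESC PCGF6 and RING1B at 56.4 and 85.1%, CTCF at 45.7% and RAD21 at 31.9%. With a gap of 500 bp allowed, AhCre H2AK119ub1 stood at 92.6% in WT and was lost at 2.96%, and CTCF stood at 43.0%. With WT and KO lists of equal length the lost shares were 21.1% for RING1B in Villin, 23.3% in AhCre and 6.49% in both, 44.4% for PCGF6 and 6.21% for AhCre H2AK119ub1; over all RING1B peaks they were 34.9 and 25.9% for RING1B, 27.1% for PCGF6 and 9.35% for AhCre H2AK119ub1. Villin RING1B loss was 35.1% when members were chosen by AhCre H2AK119ub1 (979 peaks) and 17.4% at the 556 members with an AhCre WT RING1B peak.

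No paired analysis was possible because each group has 1 library, and no replicate was left out for the same reason. A peak that misses the score minimum of 10 is absent from a list, so absence from a list is not absence of signal. The depth of the libraries is unknown from peak lists. PCGF6 was mapped in AhCre and most other lists come from Villin, so line and target cannot be told apart in comparisons that join them.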
